A study of Mus musculus with 8 samples.

Results

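The feedback inhibitors and Ets factors that read out FGF and ERK signalling were followed in mouse epiblast-like cells after loss of GRHL2, which belongs to the grainyhead-like transcription factors and acts in epithelia. They are 10 genes, chosen by name: the Sprouty genes Spry1, Spry2 and Spry4, the Spred genes Spred1 and Spred2, the phosphatase gene Dusp6, the Sef gene Il17rd, and the Pea3-group Ets genes Etv1, Etv4 and Etv5. The platform annotation gives them 16 of the 25697 probes of an Illumina MouseRef-8 v2.0 bead array. Of these, 11 probes for 8 genes were retained, meaning a detection p under 0.05 on at least 4 of the 8 arrays, out of 12790 retained probes in all. The wildtype group was 4 subclones of V6.5, a mouse embryonic stem cell line, labelled GRHL2 wildtype. The other group was 4 clones of the same line labelled GRHL2 knockout. Both groups were grown without LIF and without the 2i inhibitors (a GSK inhibitor and a MEK inhibitor) for 3 days before RNA was taken with Trizol. Each clone gave 1 array, so the effects of a clone, its culture and its array cannot be told apart, and p-values measure the spread between these arrays. The sources used here do not say how the knockout was made.

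FGF ligands bind receptor tyrosine kinases on the cell surface, and adaptor proteins pass the signal through RAS, RAF and MEK to the kinases ERK1 and ERK2. Active ERK raises the transcription of its own inhibitors, so the transcripts of Sprouty, Spred, Dusp6 and Sef proteins are widely used as readouts of the pathway, as are the Pea3-group Ets factors. In mouse pluripotent cells this pathway promotes exit from the naive state, which is why naive cultures contain a MEK inhibitor and why its withdrawal lets ERK signalling resume.

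In knockout cells Etv1 and Il17rd rose, and the other 6 measured genes did not pass the test. Etv1 rose 2.29-fold and Il17rd 1.55-fold on normalized intensity. In RNA of whole cultures, more expressing cells and more transcript per cell cannot be told apart. Dusp6, Etv4, Etv5, Spred1 and Spry4 had changes between -0.21 and 0.16 on the log2 scale. Spry1 and Spry2 were not above background on any array. The 2 genes called of 8 tested stand beside a background of 13.7% of 8830 genes called (limma, Benjamini-Hochberg adjusted p under 0.05), 6.55% higher and 7.17% lower. The knockout arrays lay entirely above the wildtype arrays for these same 2 genes, and for 12.4% of all genes. In either direction, the groups did not overlap for 23.2% of all genes. The median log2 change was 0.12 over the 8 genes and 0.01 over all genes tested. With so few genes, these shares do not set the 8 apart from the rest.

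To show the regulatory sequence at the 2 genes that rose and at the brightest feedback gene, their promoters are printed from RefSeq (build GRCm38.p6, 250 bases before to 50 after a transcription start). Capitals mark a match to AACCNGTT, the consensus of grainyhead factors, on either strand. All lie on the plus strand and are given 5′ to 3′. Etv1 has a pair of annotated starts.
Etv1, upstream start, chr12:38779832-38780131: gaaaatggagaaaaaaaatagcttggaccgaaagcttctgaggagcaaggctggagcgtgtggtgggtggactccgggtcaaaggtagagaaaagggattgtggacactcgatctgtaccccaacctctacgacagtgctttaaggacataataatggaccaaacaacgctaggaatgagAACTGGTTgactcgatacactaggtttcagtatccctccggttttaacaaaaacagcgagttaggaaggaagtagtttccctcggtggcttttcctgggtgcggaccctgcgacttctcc
Etv1, downstream start, chr12:38783461-38783760: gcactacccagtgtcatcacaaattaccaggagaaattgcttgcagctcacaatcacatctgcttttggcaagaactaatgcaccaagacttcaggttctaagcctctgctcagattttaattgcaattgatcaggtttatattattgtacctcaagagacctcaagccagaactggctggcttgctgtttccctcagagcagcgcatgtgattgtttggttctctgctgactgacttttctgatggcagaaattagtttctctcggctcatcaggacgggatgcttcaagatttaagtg
Il17rd, chr14:27038751-27039050: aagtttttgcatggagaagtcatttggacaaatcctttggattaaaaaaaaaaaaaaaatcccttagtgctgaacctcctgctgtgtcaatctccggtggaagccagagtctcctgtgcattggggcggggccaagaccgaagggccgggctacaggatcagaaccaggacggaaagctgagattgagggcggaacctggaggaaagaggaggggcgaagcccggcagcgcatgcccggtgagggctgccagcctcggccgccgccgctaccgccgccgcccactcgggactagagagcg
Dusp6, chr10:99262981-99263280: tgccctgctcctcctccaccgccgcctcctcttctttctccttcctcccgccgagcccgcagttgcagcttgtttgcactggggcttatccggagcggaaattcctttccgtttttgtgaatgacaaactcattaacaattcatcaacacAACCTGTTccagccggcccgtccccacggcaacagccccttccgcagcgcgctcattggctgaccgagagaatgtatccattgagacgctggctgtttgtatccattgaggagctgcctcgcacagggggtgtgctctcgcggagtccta
The upstream Etv1 promoter held AACTGGTT, the reverse complement of the consensus, with its first base at position -70 from the start (chr12:38780012-38780019). The Dusp6 promoter held AACCTGTT at -100 (chr10:99263131-99263138). The downstream Etv1 promoter and the Il17rd promoter held no match. AACCNGTT was found in 2.09% of 32851 promoters of the same length. Promoter entries existed for 8 of the 10 genes, 10 entries in all, and Spry4 and Etv4 had none here. The stricter AACCGGTT (0.146% of promoters) was in none of the 10, and the looser AACNNGTT (4.20%), which covers AACCNGTT, was also in that of Spred1. Among Ets motifs, CCGGAA (14.9% of promoters) was in that of Spry2, while the longer CCGGAAG (8.86%), CGGAAGT (6.42%) and CCGGAAGT (3.89%) were in none of the 10. Only forms with CGGAA were searched. The upstream Etv1 promoter printed above holds aggaagt, a form that was not counted over all promoters. The GC box GGGCGG (35.7%) was in those of Spred1, Spry1, Spred2, Il17rd and Etv5. TGACTCA (5.20%), TGACGTCA (1.79%), TGACGTAA (0.499%), CAGGTG (20.2%) and CACGTG (7.15%) were in none. A match describes letters in these windows and says nothing of binding.

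Before normalization, knockout arrays were dimmer than wildtype arrays, which bears on every value below. Mean intensity in knockout was 72.3% of wildtype (exact permutation p = 0.0286, the smallest that 4 against 4 arrays allow). The Grhl2 probe was still detected on all 8 arrays, and whether it reads a part of the gene altered in knockout is unknown here. Grhl2 was lower by 1.13 on the log2 scale in knockout (SE 0.30, limma adjusted p = 0.0369). That call was lost without any 1 of wildtype replicates 1, 2 and 4 and knockout replicates 2, 3 and 4, with adjusted p up to 0.0835 and changes of -1.23 to -0.88. Wildtype replicate 3 carried higher values of chromosome 6 genes than the other wildtype arrays (median 0.40), and knockout replicate 1 lower values of chromosome 8 genes (median -0.43). None of the 10 genes lies on either chromosome. Markers of the epiblast-like state were present in both groups: of 10 listed genes 8 were measured, among them Pou5f1, Otx2, Fgf5 and Dnmt3b, each detected on all arrays, and 2 rose (Pou3f1 and Utf1). Their summed normalized intensity was 26730 to 33120 in wildtype and 31280 to 32780 in knockout. Dnmt3b, the brightest at 14.35 in wildtype and 14.21 in knockout on the log2 scale, weighs most in that sum. Changes were above 0 for 6 of the 8, and Otx2 had a change of -0.57 (adjusted p = 0.0711). Of 9 trophoblast markers, 6 were measured and 3 fell (Krt8, Krt18 and Tfap2c), and their summed normalized intensity was 2168 to 10550 on wildtype arrays against 709 to 1130 on knockout arrays. Of the trophoblast regulators in the list, Tfap2c and Eomes were detected on all 8 arrays, Gata3 on 4 wildtype and 3 knockout arrays, Cdx2 on 1 array of each group, and Elf5 and Hand1 on 0 arrays. Eomes and Gata3 had changes of -0.59 (adjusted p = 0.0584) and -1.27 (adjusted p = 0.0884). Of 10 naive-state markers 6 were measured and 1 rose (Klf2, by 1.03), with sums of 1523 to 3047 in wildtype and 1614 to 2163 in knockout. Changes were above 0 for 3 of the 6, and Dppa3 had a change of -1.18 (adjusted p = 0.108). Klf4 was detected on 2 wildtype and 0 knockout arrays. Of 8 fibroblast and 8 extraembryonic endoderm markers and 6 mesoderm markers, 2 each were measured and 0 passed (limma). The fibroblast markers Dcn and Thy1 and the endoderm marker Dab2 were detected on all 8 arrays, Lamb1 on 4 wildtype and 2 knockout arrays, Evx1 on 4 and 3, Tbx6 on 3 and 3, and Gata6 on 2 wildtype arrays. Col1a1, Col1a2, Col3a1, Gata4, Foxa2 and Mesp1 were detected on 0 arrays. Their sums on wildtype and knockout arrays were 362 to 454 and 380 to 643 for fibroblast, 343 to 599 and 345 to 555 for endoderm, and 106 to 133 and 64.7 to 108 for mesoderm. Of 6 neuroectoderm markers 3 were measured and 1 rose (Irx3, by 1.29, adjusted p = 0.0160). Zic1 and Nes had changes of 0.61 (adjusted p = 0.0832) and 0.09 (adjusted p = 0.872). The sum of the 3 was 1015 to 1554 on knockout arrays against 470.5 to 895 on wildtype arrays. Sox1 was detected on 2 knockout and 0 wildtype arrays, and Pax6 and Hes5 on 0 arrays. The part of these other markers in the results below was not tested.

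Etv1 encodes an Ets transcription factor of the Pea3 group. Its normalized log2 intensity was 7.08, 7.05, 6.83 and 7.04 on wildtype arrays 1 to 4. On knockout arrays 1 to 4 it was 8.40, 8.21, 8.04 and 8.13. Every knockout array lay above every wildtype array, and the gap between the groups was wider than the spread within either. The change was 1.20 (SE 0.11, 95% interval 0.94 to 1.45, adjusted p = 0.000918). A second Etv1 probe gave 6.83 to 7.18 in wildtype and 7.95 to 8.22 in knockout. Its change of 1.06 also passed when each retained probe was tested on its own (adjusted p = 0.00159), where 13.0% of probes did. Before normalization the first probe had a mean intensity of 282 ± 24.3 in wildtype and 334 ± 53.8 in knockout (SD, n = 4 each). The intensities of the groups overlapped, from 252 to 307 and from 284 to 410, so the separation rests on the scaling of arrays that differ in brightness. Even so, the knockout intensity was 119% of wildtype, and 111% for the second probe, when the median over all genes tested was 74.6%.

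Il17rd encodes Sef, a transmembrane protein that inhibits FGF receptor signalling. Its log2 values were 6.71, 6.99, 7.44 and 7.08 on wildtype arrays 1 to 4, and 7.76, 7.55, 7.66 and 7.79 on knockout arrays 1 to 4. The groups did not overlap, but wildtype replicate 3 lay close to the lowest knockout array. The change was 0.64 (SE 0.15, 95% interval 0.30 to 0.97, adjusted p = 0.0263). Its call was lost when any 1 of 5 arrays was left out (wildtype replicates 1, 2 and 4, knockout replicates 3 and 4), with adjusted p up to 0.0702; over all 8 such fits the change was 0.52 to 0.76. Intensities before normalization were 256 to 324 in wildtype and 248 to 304 in knockout, 92.3% of wildtype in the mean. With no normalization between arrays the change was -0.04 (adjusted p = 0.854). The rise of Il17rd is therefore a rise relative to the other genes of the same arrays.

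**Figure D1:**
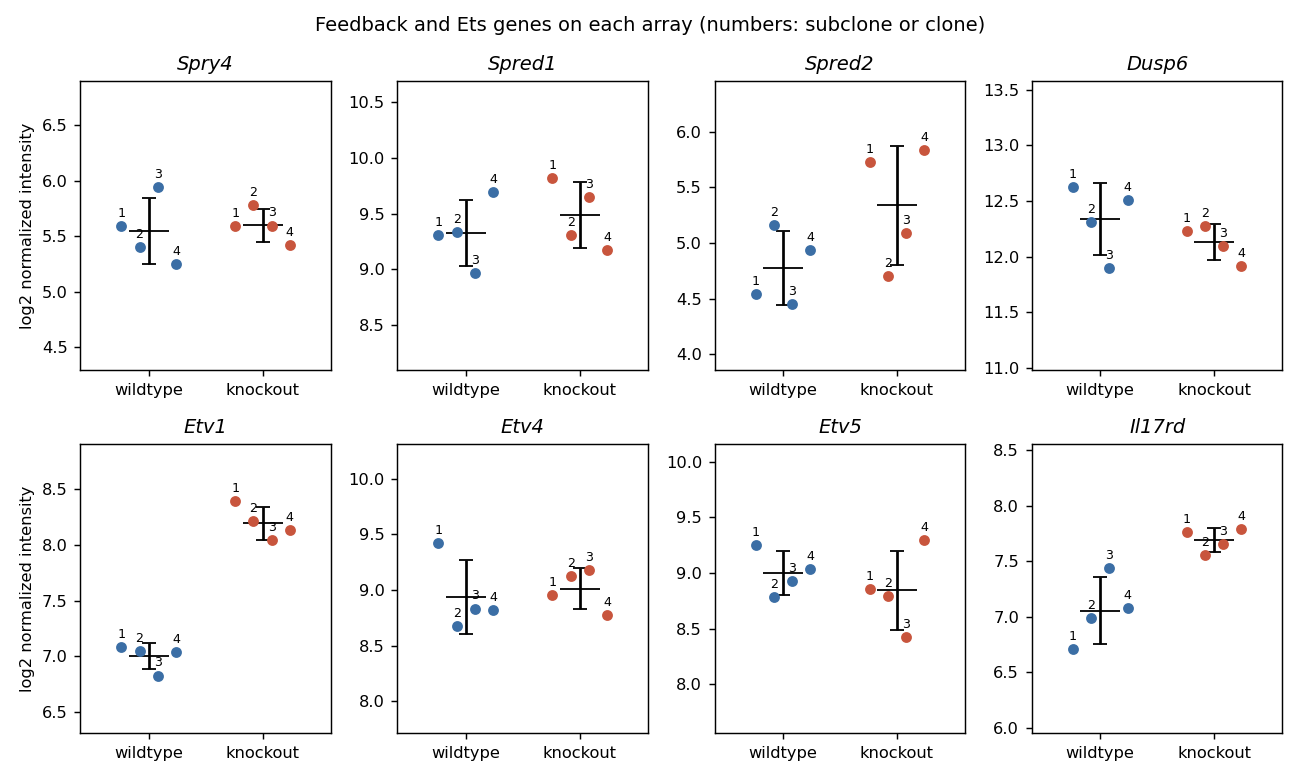
Normalized log2 intensity of the 8 measured feedback and Ets genes on each array, wildtype in blue and knockout in red, with the mean and SD (n = 4) as bars; each point bears its subclone or clone number and every panel spans the same height. The 2 groups are apart for Etv1 and Il17rd and overlap for Spry4, Spred1, Spred2, Dusp6, Etv4 and Etv5.

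Etv4 and Etv5, the other Pea3-group genes, had no called change. Etv4 had log2 values of 9.43, 8.67, 8.83 and 8.82 in wildtype and 8.95, 9.13, 9.18 and 8.78 in knockout. The groups overlapped, and the change was 0.07 (95% interval -0.31 to 0.46, adjusted p = 0.806). Etv5 had 9.25, 8.78, 8.93 and 9.03 in wildtype and 8.86, 8.79, 8.43 and 9.30 in knockout. It too overlapped, with a change of -0.15 (95% interval -0.56 to 0.25, adjusted p = 0.591). Both intervals lie below that of Etv1.

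The difference among the Pea3 genes was tested within arrays on the normalized log2 values, where a common scale factor cancels. Background correction and quantile normalization act by intensity and do not cancel between Etv1 and the brighter Etv4 and Etv5. The log2 value of Etv1 minus that of Etv5 ran from -2.16 to -1.73 on wildtype arrays and from -1.17 to -0.38 on knockout arrays. It was thus higher on all 4 knockout arrays, by 1.35 in the mean (exact two-sided permutation p = 0.0286, the smallest possible, and 0.0429 adjusted over the 3 pairs). Etv1 minus Etv4 was higher by 1.13 on the same terms (exact permutation p = 0.0286, adjusted 0.0429). Etv4 minus Etv5 changed by 0.23 with groups that overlapped (exact permutation p = 0.457). The pairs were set up after the values were seen, with Etv1 already known to stand apart, so these p-values are not independent support. With no background correction, an offset of 50, no normalization between arrays, the authors' deposited normalized values or any 1 array left out, the rise of Etv1 over Etv5 was 0.85 to 1.53 and that over Etv4 0.68 to 1.23. The exact permutation p was at its smallest possible value throughout and so says nothing of stability.

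Dusp6 encodes a cytoplasmic phosphatase that removes the activating phosphates of ERK. Its brightest probe had log2 values of 12.63, 12.31, 11.90 and 12.51 in wildtype and 12.23, 12.28, 12.10 and 11.92 in knockout. Wildtype replicate 3 was lower than every knockout array, so the groups overlapped, and the change was -0.21 (95% interval -0.58 to 0.16, adjusted p = 0.413). The other Dusp6 probes gave changes of -0.05 (adjusted p = 0.867) and 0.33 (adjusted p = 0.234) when each probe was tested on its own, so the 3 probes did not share a direction. Before normalization Dusp6 stood among the genes with the lower ratios: its brightest probe had 6501 ± 1498 in wildtype and 3719 ± 791 in knockout (SD, n = 4 each), 57.2% of wildtype, against a middle range of 64.4% to 83.2% for all genes. These intensities include background, and that range is not matched for brightness. The undetected Spry1 and Spry2 probes were at 84.0% to 89.5%. Etv5 was at 59.9%, with 640 to 897 in wildtype and 382 to 523 in knockout, 2 ranges that did not overlap. With no normalization between arrays the changes of Dusp6 and Etv5 were -0.82 and -0.87 and both passed (adjusted p = 0.00408 and 0.00132). Etv4 was at -0.64 and also passed (adjusted p = 0.0169), its direction turned. All genes shifted by a median of -0.58 there, and relative to that shift Dusp6 was at -0.24, Etv5 at -0.29, Etv4 at -0.06, Il17rd at 0.54 and Etv1 at 1.09.

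**Figure D2:**
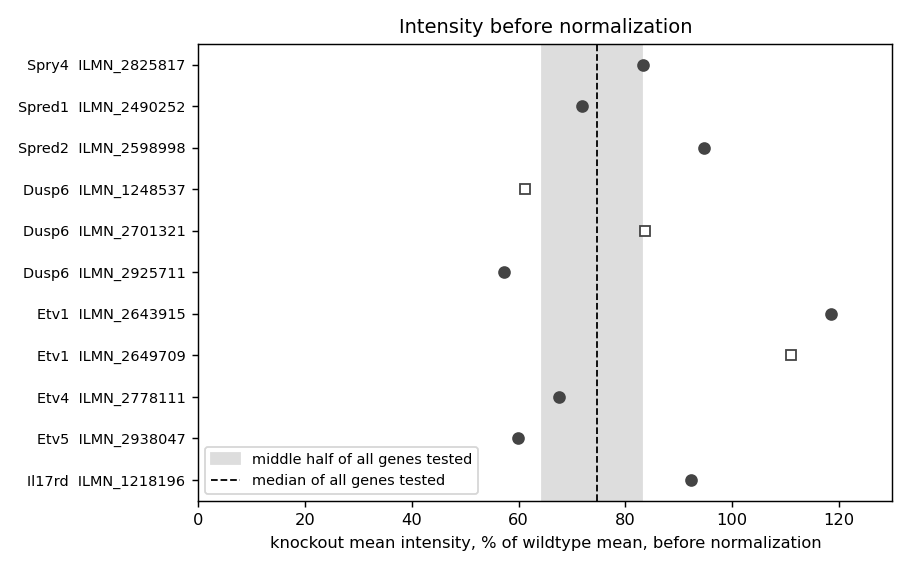
Mean intensity of knockout arrays as a percentage of that of wildtype arrays, before background correction and normalization, for each retained probe of the feedback and Ets genes; filled circles stand for the gene in the test and open squares are its other probes. The dashed line is the median over all genes tested (74.6%) and the grey band the middle range (64.4% to 83.2%); both Etv1 probes, at 119% and 111%, are highest and the brightest Dusp6 probe is lowest, at 57.2%. The band is not matched for brightness.

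The Sprouty and Spred genes encode membrane-associated inhibitors of RAS and RAF activation. Spred1 was bright, at 9.31, 9.34, 8.97 and 9.69 in wildtype and 9.82, 9.31, 9.65 and 9.18 in knockout. Its groups overlapped, with a change of 0.16 (95% interval -0.25 to 0.58, adjusted p = 0.576). Spred1 was highest on wildtype replicate 4 and knockout replicate 1, the brightest arrays of their groups at 744 and 571 mean intensity, and lowest on wildtype replicate 3 and knockout replicate 4, the dimmest at 668 and 447. Whether brightness sets these values was not tested beyond the fit with brightness as a covariate, which gave 1.44 (SE 0.33, adjusted p = 0.195).

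Spry4 was dim but detected on all 8 arrays, at 5.59, 5.40, 5.94 and 5.25 in wildtype and 5.59, 5.78, 5.60 and 5.42 in knockout. Its change was 0.05 (95% interval -0.30 to 0.40, adjusted p = 0.845). Of 3 Spred2 probes 1 was retained, detected on 2 wildtype and 3 knockout arrays. It gave 4.54, 5.16, 4.45 and 4.94 in wildtype and 5.73, 4.71, 5.09 and 5.83 in knockout. The change of 0.57 did not pass (95% interval -0.02 to 1.15, adjusted p = 0.167). It passed with the arrays scaled to the median of the retained probes, at 0.95 (adjusted p = 0.0227). Both Spry1 probes and the Spry2 probe were detected on 0 arrays, the lowest detection p being 0.0589 and 0.132. The Spry2 probe read 128 to 147 in wildtype and 112 to 124 in knockout, and the dimmer Spry1 probe 135 to 143 and 116 to 131. These intensities were lower on every knockout array, as overall brightness was, and after normalization the groups overlapped. Since neither group was above background, no fold is given for Spry1 and Spry2, and the main fit did not test them. In the fit without a detection filter, which tested all 10 genes, only Etv1 and Il17rd were called.

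**Figure D3:**
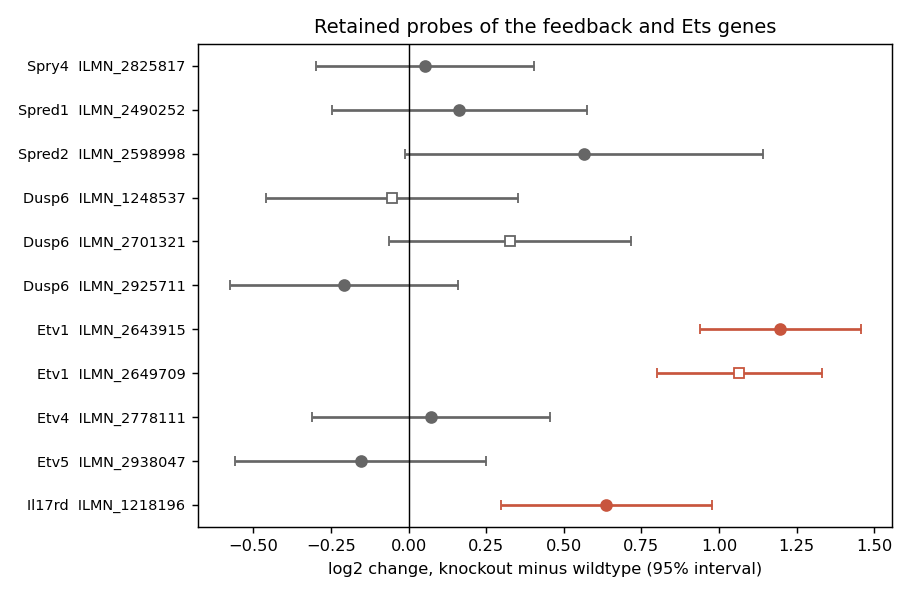
Change in log2 normalized intensity, knockout minus wildtype, with its 95% interval, for the 11 retained probes each tested on its own; filled circles stand for their gene, open squares are further probes and red marks an adjusted p under 0.05. Both Etv1 probes and the Il17rd probe lie to the right of 0, and the intervals of the other 8 probes include 0.

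The authors' deposited table gave log2 changes of 0.71 and 0.63 for the Etv1 probes (adjusted p = 0.00034 and 0.000597) and 0.36 for Il17rd (adjusted p = 0.0130). In the authors' deposited table the adjusted p of the other 13 probes was 0.349 or more, and 8.62% of all its probes were under 0.05. The authors' deposited normalized values show no background correction, and the same probes without one here gave 0.73 for Etv1 and 0.36 for Il17rd. Etv5 was at -0.12 in both. Spred1, Etv4 and Spry4 were at 0.048, 0.122 and 0.040 in the deposited table against 0.138, 0.055 and 0.011 here. The deposited changes are thus not plain differences of group means of the deposited values, and the reason was not tested. Over the 88 values of the 11 retained probes the standard error over beads was 2.20% to 7.39% of the intensity, with a median of 3.75%, from 20 to 55 beads. For 1 of the Dusp6 probes (ILMN_1248537) in knockout, the error over beads, at 25 to 30.6 in intensity, was above the SD of 18.9 between arrays.

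Most of the genes around these readouts did not pass the test. In 5 lists of other genes of the pathway, 69 of 113 were measured, 1 rose and 9 fell. Of all genes, 13.7% were called, 6.55% higher and 7.17% lower, and these shares stand beside the count of each list below. Without wildtype replicate 4, 6 were called, all lower. With no normalization between arrays the split was 0 higher and 52 lower, and 36 and 5730 over all genes against 578 and 633 as reported. The median change was -0.03 over the 69 genes.

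Among 12 measured FGF ligands, receptors and their binding proteins, Fgfrl1, an FGF receptor without a kinase domain, rose by 0.49 (adjusted p = 0.0369) and 0 fell. Its call was lost without any 1 of 6 arrays (wildtype replicates 1 to 4, knockout replicates 3 and 4), with adjusted p up to 0.0931, and with no normalization between arrays its change was -0.13. Fgf4, the ligand that naive cells make, was 6.37 ± 0.20 in wildtype and 6.38 ± 0.43 in knockout (SD, n = 4 each). Fgf5, the ligand of the epiblast, was 9.93 ± 0.17 and 10.06 ± 0.56, with an adjusted p of 0.747. The receptor genes Fgfr1 and Fgfr2 had changes of 0.32 (adjusted p = 0.277) and -0.56 (adjusted p = 0.170), and Fgfr2 was detected on 2 knockout arrays.

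Of 11 measured adaptors and cascade kinases, 0 passed (limma), and changes ran from -0.51 to 0.35. The brightest, Nras, was 12.77 ± 0.04 in wildtype and 12.65 ± 0.25 in knockout, and Shc1 was 12.66 ± 0.07 and 12.73 ± 0.07 (SD, n = 4 each). The kinase genes Map2k1 and Map2k2, which encode MEK1 and MEK2, had changes of -0.51 (adjusted p = 0.224) and 0.35 (adjusted p = 0.0742).

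Of 20 measured genes in the list of other inhibitors, 4 fell and 0 rose. Errfi1, an inhibitor of the EGF receptor, had log2 values of 10.30 to 11.03 in wildtype and 9.73 to 9.91 in knockout and fell by 0.72 (adjusted p = 0.0207). Dusp8 and Dusp1, phosphatases that act on stress-activated MAP kinases, fell by 0.65 (adjusted p = 0.0137) and 0.62 (adjusted p = 0.0189). Flrt3, a transmembrane partner of FGF receptors that in Xenopus promotes FGF signalling and so does not do what the list's name says, fell by 0.64 (adjusted p = 0.0210), and a second probe gave -0.75 (adjusted p = 0.0116, each probe on its own). Errfi1 lost its call without wildtype replicate 2, Flrt3 without wildtype replicate 4 or knockout replicate 2, and Dusp1 without wildtype replicate 4 or knockout replicate 3, with adjusted p up to 0.0580. Dusp4 and Dusp7, ERK phosphatases like Dusp6, had changes of 0.02 (adjusted p = 0.965) and 0.37 (adjusted p = 0.0533). Dusp4 lies on chromosome 8, whose genes were lower on knockout replicate 1.

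Of 16 measured immediate early and other ERK-induced genes, 3 fell and 0 rose. Egr1, a zinc finger factor induced by ERK within minutes of a stimulus, was 8.87 to 9.41 in wildtype and 7.60 to 8.54 in knockout and fell by 1.11 (adjusted p = 0.0102). Phlda1 fell by 1.33 (adjusted p = 0.0108) and the AP-1 gene Junb by 0.66 (adjusted p = 0.0301). Junb lies on chromosome 8 and lost its call without any 1 of 5 arrays, with adjusted p up to 0.0761, but not without knockout replicate 1. Ccnd1 and Myc, which growth factor signalling also induces, had changes of -0.01 (adjusted p = 0.958) and 0.13 (adjusted p = 0.580). The immediate early gene Egr1 and the Pea3 gene Etv1 thus moved in opposite directions in the same clones.

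Of 10 measured Ets genes outside the Pea3 group, Elf3 and Elf1 fell. Elf1 was 7.16 to 7.33 in wildtype and 5.71 to 6.49 in knockout, a fall of 1.02 (adjusted p = 0.00881). Elf3, an Ets factor of epithelia, fell by 1.70 (adjusted p = 0.00818), with wildtype replicate 3 far above the other wildtype arrays. Of its other probes, each tested on its own, 1 fell by 0.86 (adjusted p = 0.0364) and 1 gave 0.02 (adjusted p = 0.978). Of the 6 measured genes in the trophoblast list above, 3 also fell (Krt8, Krt18 and Tfap2c), and their part in the fall of Elf3 was not tested. Ets1 and Ets2 had changes of 0.61 (adjusted p = 0.136) and -0.25 (adjusted p = 0.297).

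**Figure D4:**
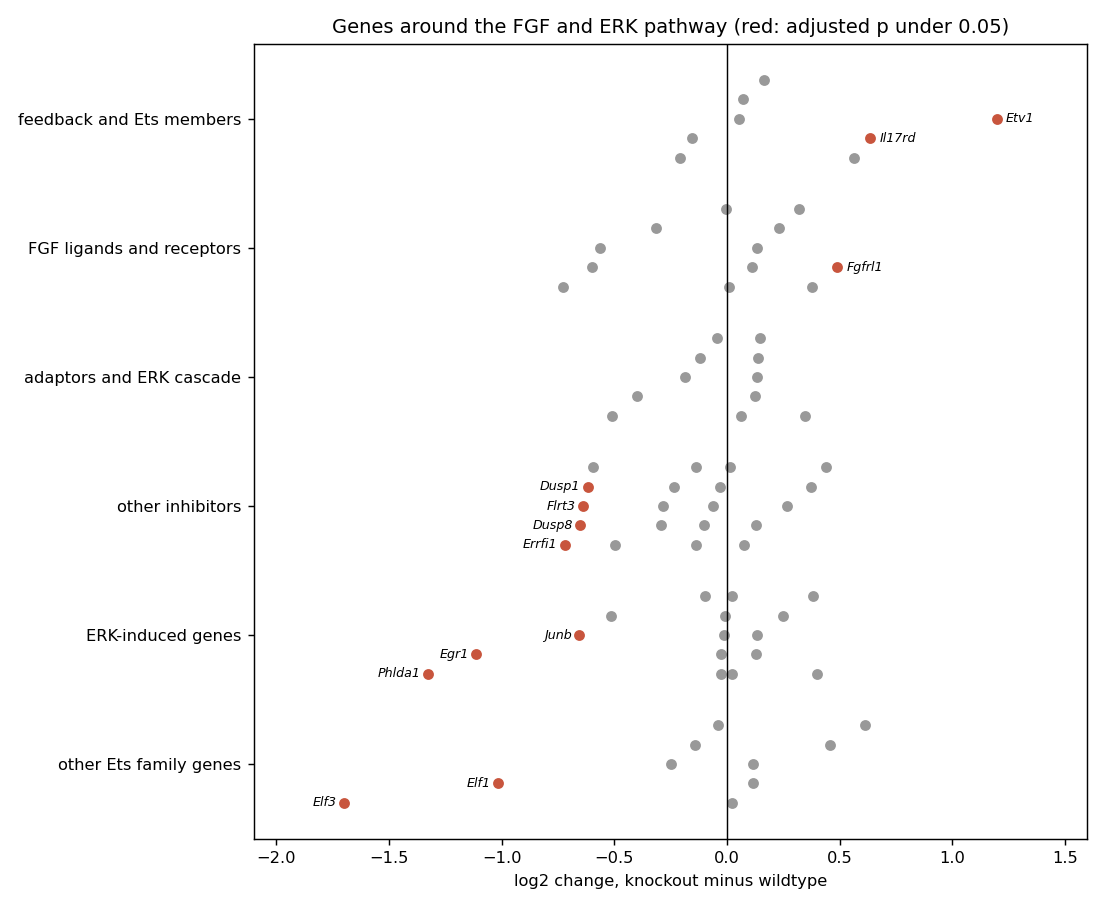
Change in log2 normalized intensity, knockout minus wildtype, for each measured gene of the feedback and Ets group (8 genes) and of the 5 lists around it (69 genes); red points passed an adjusted p under 0.05 and carry their names, and the vertical position within a row only separates points. Etv1, Il17rd and Fgfrl1 lie to the right of 0, and the 9 genes that fell come from the lists of other inhibitors, ERK-induced genes and other Ets genes.

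The genes most like Etv1 and Il17rd over the 8 arrays were found by the root mean square difference of log2 values, each gene centred on its own mean. Those closest to Etv1 were Sars (difference 0.18), Rxrg (0.18) and Vasn (0.19), with changes of 1.02, 1.08 and 0.95. Those closest to Il17rd were Trit1 (0.08), Dgcr6 (0.09) and Utp25 (0.10), with changes of 0.57, 0.75 and 0.60. Of these, Trit1 was not called (limma adjusted p = 0.0659). The centred values hold the difference between the groups, so changes of like size follow from how these genes were picked and are no result. None of the other 7 measured feedback and Ets genes was among the 3 nearest to either. With 8830 genes to draw from, that says nothing of whether these genes moved together.

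**Figure D5:**
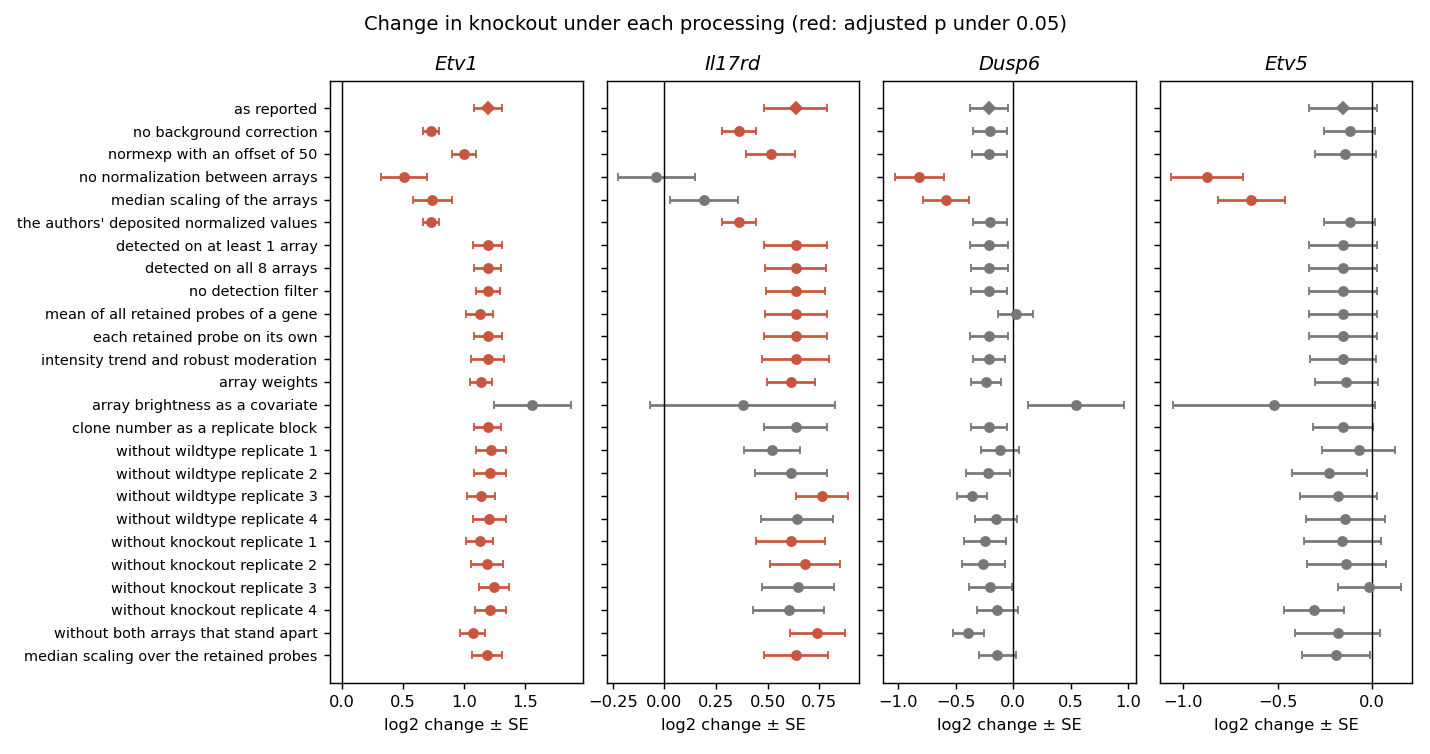
Log2 change in knockout, with its SE, of Etv1, Il17rd, Dusp6 and Etv5 under the reported processing (diamond, top) and 24 alternatives (circles); red marks an adjusted p under 0.05. Etv1 lies above 0 throughout, Il17rd meets 0 with no normalization between arrays, and Dusp6 and Etv5 pass only with no normalization and with arrays scaled to the median of all probes.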

How the data were processed

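Total RNA of 4 wildtype and 4 knockout clones was measured on bead arrays. The authors deposited, per the file headers, an intensity averaged over beads for each probe and array, with the count of beads, the error over beads and a detection p-value. The authors also deposited log2 values after quantile normalization, and a comparison table with log2 fold changes, p-values and a score (moderated t and log odds). The submitters' processing notes name limma, and the sources used here name no other software. From the values, the intensities were not background-corrected.

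The neqc function (limma 3.58.1, R 4.3.3) was applied to the intensities (background from the detection p-values, offset 16, quantile normalization), which gave the log2 values reported. Gene symbols came from the platform annotation, with 1719 probes unnamed. The retained probe with the highest mean stood for its gene. The groups were compared by lmFit and eBayes, two-sided, as knockout minus wildtype, with Benjamini-Hochberg adjustment over 8830 genes. The fit was tested on simulated data. SE is the moderated standard error. The number of arrays, 4 a group, limits the precision.

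The members, lists and tests were chosen with earlier results of these data known. Named genes were all members, Grhl2, up to 4 called genes per list or its 2 brightest, and Fgf4, Fgf5, Fgfr1 and Fgfr2. Map2k1, Map2k2, Dusp4, Dusp7, Ccnd1, Myc, Ets1, Ets2 and the marker genes given by name were added after their values were seen. Alternatives covered background, normalization, filter, probe, variance, weights, brightness, block and left-out arrays. No per-sample column stayed unmapped.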

Additional observations from a re-analysis of the deposited data

Results flagged for a closer look

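In each group of 4 arrays, the gap of the highest or lowest value to its neighbour was set against the range of the group, which by chance marks about 1 group in 20. Over 58 such groups of values, 2 stood out, and both concern genes beside the feedback and Ets genes. Grhl2 on knockout replicate 3 was at 7.06, below the other knockout arrays at 7.86 to 7.99. Elf3 on wildtype replicate 3 was at 8.34, above the other wildtype arrays at 6.98 to 7.03. None of the 11 retained probes of the feedback and Ets genes stood out in this way.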

How the results depend on the processing

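The counts depended most on how arrays of unequal brightness were put on 1 scale. With no normalization between arrays, where the median gene shifted by -0.58, 4 feedback and Ets genes were called (1 higher, 3 lower), 5766 of all genes and 52 pathway genes. With arrays scaled to the median of all probes, 3601 genes and 26 pathway genes were called. Scaling to the median of the retained probes, chosen after seeing the data, gave 1880 genes (1254 higher, 626 lower) and 19 pathway genes. Array weights gave 2175 genes and 17 pathway genes. Array brightness as a covariate, which is nearly the group itself, gave 0 feedback and Ets genes, 5 genes and 0 pathway genes. Without wildtype replicate 3 and knockout replicate 1 together, 16 pathway genes were called, with Etv1 at 1.07 and Il17rd at 0.74, both called. With any 1 array left out, 1 to 2 feedback and Ets genes, 510 to 1440 genes and 6 to 13 pathway genes were called, and the brightness difference was -216 to -174. The count of all genes was 510 to 657 when a single array other than wildtype replicate 3 or knockout replicate 1 was left out.

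Clone numbers did not pair the arrays: same-numbered arrays correlated at -0.08 to 0.05 in their deviations from the group means. With the clone number as a replicate block, 1 feedback and Ets gene and 671 genes were called. Il17rd then had an adjusted p of 0.0530 and Etv1 of 0.00800.

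Etv1 rose under all 24 alternatives, by 0.51 to 1.56, and lost its call only with brightness as a covariate (adjusted p = 0.163). Il17rd kept its call under 15 of 24. It lost it at 0.19 with median scaling of all probes (adjusted p = 0.363) and at 0.38 with brightness as a covariate (adjusted p = 0.804). Directions turned as follows, and the causes were not tested. With no normalization the changes were -0.39 for Spry4, -0.55 for Spred1, -0.64 for Etv4, -0.039 for Il17rd, -0.13 for Fgfrl1, -0.51 for Shc1, -0.58 for Fgf4, -0.58 for Fgf5 and -0.23 for Fgfr1. With median scaling of all probes they were -0.16 for Spry4, -0.32 for Spred1, -0.41 for Etv4, -0.28 for Shc1, -0.35 for Fgf4 and -0.35 for Fgf5. With brightness as a covariate they were -0.21 for Spry4, 0.55 for Dusp6, -0.061 for Shc1, -0.87 for Fgf4, -1.10 for Fgf5 and -0.54 for Fgfr1. Dusp6 was at 0.021 with the mean of its probes. Spred1 was at -0.012 with array weights and -0.065 without both arrays that stood apart. With 1 array left out, Etv4 ranged from -0.016 to 0.24, Spry4 from -0.046 to 0.19, Fgf4 from -0.17 to 0.18 and Fgf5 from -0.11 to 0.31. Spred2 had no value when detection on all 8 arrays was required. Signal near background limits Spry1, Spry2 and Spred2.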
